A study of Mus musculus with 10 samples.

Results

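The miR-17-92 cluster and its X-linked paralog, the miR-106a-363 cluster, gave 10 of the 1340 mature miRNAs listed for the RPE/choroid/sclera of the mouse eye. They were taken by name, as the main arms of the hairpins in both clusters: mmu-miR-17-5p, mmu-miR-18a-5p, mmu-miR-19a-3p, mmu-miR-20a-5p, mmu-miR-19b-3p and mmu-miR-92a-3p on chromosome 14, and mmu-miR-106a-5p, mmu-miR-18b-5p, mmu-miR-20b-5p and mmu-miR-363-3p on chromosome X. The groups were 5 right eyes and 5 left eyes from C57BL/6J animals, all wild type and aged to postnatal day 34, and each library title carries one of the numbers 61, 64, 65, 66 and 68, on one right and one left eye. A -20 D lens had been worn over one eye of each animal for 10 days from day 24, with the fellow eye bare. Which eye wore it is not in the labels, so every contrast here is right against left eye, and a lens effect that fell on both sides would be diluted in it. The extraction text speaks of retinae, but the tissue is labelled RPE/choroid/sclera, and the label was followed.

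A polycistron of this kind is made as one long primary transcript, from which Drosha and Dicer cut several hairpins. The miR-17-92 transcript is induced by MYC and E2F factors and is best known for driving proliferation and survival, in development and in lymphoid tumours. Members fall into seed groups, since bases 2 to 8 of a miRNA do most of the target pairing. The miR-17 group is known to restrain the cell cycle inhibitor Cdkn1a, and miR-92a the integrin subunit Itga5 in endothelium, where miR-92a limits vessel growth.

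The sequences are shown because seed groups cut across the clusters, and because reads of near-identical members are hard to assign. All 10 members matched RefSeq (build GRCm38.p6), and capitals mark the seed, 5′ to 3′. The miR-17 group holds 4 members.
miR-17-5p: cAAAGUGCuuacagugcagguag
miR-20a-5p: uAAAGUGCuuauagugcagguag
miR-106a-5p: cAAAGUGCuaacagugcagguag
miR-20b-5p: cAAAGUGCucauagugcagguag
The miR-18 group holds 2.
miR-18a-5p: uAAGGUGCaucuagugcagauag
miR-18b-5p: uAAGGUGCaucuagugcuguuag
The miR-19 group also holds 2.
miR-19a-3p: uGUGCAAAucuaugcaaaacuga
miR-19b-3p: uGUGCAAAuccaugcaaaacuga
In the miR-92 group are the remaining 2.
miR-92a-3p: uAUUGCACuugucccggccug
miR-363-3p: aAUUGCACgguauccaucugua

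Counted from the 5′ end, miR-106a-5p differs from miR-17-5p by U10A alone, and miR-19b-3p from miR-19a-3p by U11C alone. From miR-17-5p, miR-20b-5p differs by U10C and C12U, and miR-20a-5p by C1U and C12U. The difference of miR-18b-5p from miR-18a-5p is A18U and A20U. The sources used here do not say how the authors' counting shared reads between such miRNAs, so the split between near-identical members is uncertain.

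The 6 hairpins of miR-17-92 span 836 bases (chromosome 14, 115043671 to 115044506, plus strand, GRCm38) and lie wholly in exon sequence of the lincRNA gene Mir17hg (115042879 to 115046727). Those of miR-106a-363 span 875 bases (chromosome X, 52741693 to 52742567, minus strand). None of the X-linked hairpins lies inside another annotated gene of the same strand, miRNA genes aside. The opposite strand was not searched. Mir106a overlaps an exon of the noncoding gene Kis2 by 5 bases. The mature miR-19b-3p is encoded on both chromosomes (14, 115044358 to 115044380; X, 52741991 to 52742013), and so is miR-92a-3p (14, 115044476 to 115044496; X, 52741854 to 52741874). The deposited table lists each of these only at its chromosome 14 locus, so their signal cannot be assigned to one cluster.

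Values are the authors' normalised signal, in which libraries have nearly equal totals and share the same steps at high ranks. Identical values also recur between libraries lower down. For example, 593.465 was listed for miR-17-5p in both eyes of number 61 and for miR-19a-3p in left eye 68. Likewise, 8.38336 was listed for miR-18b-5p in left eye 66 and for the arm miR-20a-3p in left eye 61. How far rank sets the values of the scarcer members was not tested. Together the 10 members held 0.304% to 0.572% of the signal of a right eye and 0.291% to 0.458% of that of a left eye. Nearly all of it was miR-92a-3p, which made up 91.4% to 96.2% of the 10 in every library. All 10 were listed above 0 in every library, although miR-18b-5p in right eye 68 was close to 0, at 6.42e-08. Of the 10 members, 9 had a mean signal of at least 10, the minimum for testing. The exception, miR-18b-5p, is described without a test in the main comparison.

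The most abundant member, miR-92a-3p, averaged 46019 ± 10207 (SD, n = 10), with 34 miRNAs above it. Its values were 48322, 65310.2, 46092.5, 35097 and 33579 in right eyes 61, 64, 65, 66 and 68, against 48322, 48322, 51789, 51789 and 31564 in the left eyes in that order. The groups overlapped, with right eye 64 highest and both eyes of number 68 lowest. Because it ranked between 29 and 45, its value moved in rank steps, and the 10 libraries gave only 7 distinct values. In right eye 61, for example, the ranks just above and below its 48322 held 50671 and 46092.5.

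The seed mate of miR-92a on chromosome X, miR-363-3p, averaged 386 ± 45.3 (SD, n = 10). Right eyes had 328, 383, 452, 427 and 363.3, against 366, 341, 347, 399 and 452 in left eyes, in number order. Its range was narrow and the groups overlapped almost fully.

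Second in level was miR-19b-3p, which both clusters encode, at 850 ± 125 (SD, n = 10). Right eyes had 841, 771, 1092, 814 and 1009, against 678, 731, 797, 860.5 and 904 in left eyes. It was higher in 4 of 5 right eyes, with right eye 65 highest of all, but the groups overlapped.

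Its relative miR-19a-3p, encoded in miR-17-92 alone, averaged 299.8 ± 125 (SD, n = 10). The values were 130.0, 225, 329.8, 337 and 366 in right eyes, against 189.6, 268, 266, 293 and 593 in left eyes. The lowest and highest of these libraries were right eye 61 and left eye 68, and the eyes of one number tended to lie together.

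In the miR-17 group, miR-17-5p led at 609.96 ± 86.6 (SD, n = 10). Right eyes had 593, 786, 572, 544 and 461, against 593, 687, 585, 639 and 639 in left eyes. Right eyes held both the highest value, in number 64, and the lowest, in number 68. For miR-20a-5p the mean was 235 ± 25.5 (SD, n = 10), with 231, 255, 262, 251 and 203.8 in right eyes, against 208, 213, 243, 272 and 208 in left eyes. This was the least variable member on the log2 scale, with an SD of 0.16, lower than in 530 of the 588 miRNAs tested.

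The X-linked miRNAs of this group were lower. For miR-20b-5p the mean was 97.0 ± 21.1 (SD, n = 10), with 105, 99.3, 81.3, 105 and 86.7 in right eyes, against 72.9, 61.01, 116, 129 and 114 in left eyes. The right eyes lay within the range of the left eyes. For miR-106a-5p the mean was 17.04 ± 11.2 (SD, n = 10), with 23.8, 3.83, 3.63, 31.8 and 5.58 in right eyes, against 29.2, 15.7, 20.8, 28.5 and 7.59 in left eyes. Its log2 SD of 1.14 was higher than in 576 of the miRNAs tested. In right eyes 64, 65 and 68 and left eye 68 the signal was under 8, and elsewhere it was over 15. Between 235 and 307 miRNAs were listed at 0 in a library, and these 4 libraries had 278, 288, 235 and 236 such miRNAs in the order named.

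The miR-18 group was the least abundant. For miR-18a-5p the mean was 47.1 ± 11.3 (SD, n = 10), with 36.1, 63.4, 37.1, 39.3 and 43.1 in right eyes, against 60.3, 47.4, 64.1, 43.7 and 36.8 in left eyes. The mean of miR-18b-5p was 6.43 ± 3.37 (SD, n = 10), with 11.2, 7.39, 9.60, 6.75 and 6.42e-08 in right eyes, against 8.01, 5.13, 2.17, 8.38 and 5.70 in left eyes. In right eye 68 the signal of miR-18b-5p was close to 0. In an unfiltered fit its log2 difference between right and left eyes was -0.08 ± 0.61 (SE), with adjusted p = 0.986 in limma.

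**Figure D1:**
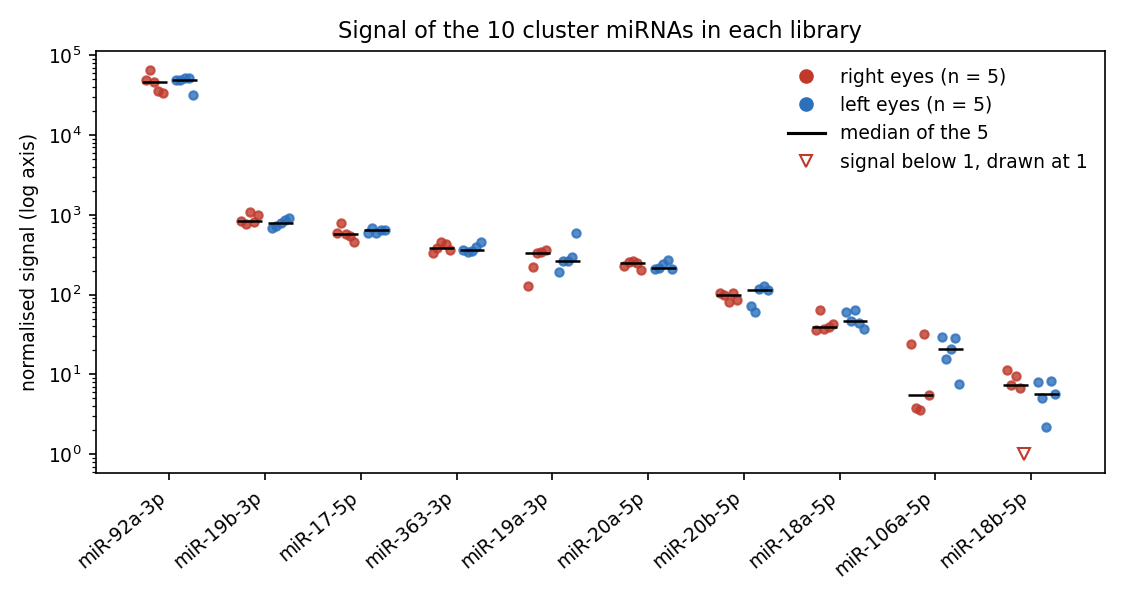
Normalised signal (log axis) of each of the 10 members in the 5 right eyes (red) and 5 left eyes (blue), ordered by mean, with the median of each side as a bar and a value below 1 drawn at 1. The medians of right and left eyes lie close for most members, miR-92a-3p stands far above the others, and miR-106a-5p is the most scattered apart from the single low value of miR-18b-5p.

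Ordered by mean, the levels ran miR-92a-3p, miR-19b-3p, miR-17-5p, miR-363-3p, miR-19a-3p, miR-20a-5p, miR-20b-5p, miR-18a-5p, miR-106a-5p and miR-18b-5p. Ranges did not overlap between miR-92a-3p and miR-19b-3p, miR-17-5p and miR-363-3p, miR-20a-5p and miR-20b-5p, or miR-18a-5p and miR-106a-5p. The other 5 neighbours overlapped, although miR-20b-5p exceeded miR-18a-5p in all 10 libraries and miR-19b-3p exceeded miR-17-5p in 9. The order was loosest around miR-19a-3p, which was below miR-363-3p in 8 libraries and above miR-20a-5p in 7. Differences in ligation between sequences can also set such an order, and that was not tested.

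Summed over own members, without the shared miR-19b-3p and miR-92a-3p, miR-17-92 had 991, 1329, 1202, 1172 and 1074 in right eyes, against 1051, 1215, 1158, 1248 and 1477 in left eyes. The X-linked sum was 468, 493, 547, 570.3 and 456 in right eyes, against 476, 422, 486.4, 565 and 579 in left eyes. From 70.0% to 82.7% of the X-linked sum was miR-363-3p. The ratio of the X-linked to the chromosome 14 sum averaged 0.442 ± 0.0459 in right eyes and 0.413 ± 0.0445 in left eyes (SD, n = 5 each). It was higher in the right eye of all 5 numbers, by 0.0192 to 0.0348, while number means spanned 0.110. No test was made, as the ratio is a score over the members, and the direction depended on how it was formed. With the mean log2 signal of the members in place of the sum it was higher in 1 of 5 right eyes, and with the shared miRNAs added to both sums in 3 of 5.

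Other miRNAs of the same seeds set the context of each group. With the 4 members, the miR-17 seed was carried by miR-93-5p and miR-106b-5p of the miR-106b-25 cluster in the replication gene Mcm7. The members gave 14.5% to 20.3% of that group's signal, and miR-93-5p alone 75.2% of it over all libraries. In the miR-92 group the members gave 58.2% to 75.5%, with miR-25-3p at 17.4%, miR-92b-3p at 14.6% and miR-32-5p at 0.164% over all libraries. No other listed miRNA with a RefSeq sequence carried the miR-18 or miR-19 seed. The summed miR-17 seed group was 5464 ± 875 in right eyes and 5453 ± 424 in left eyes, and the miR-92 group 67265 ± 12483 in right eyes and 69643 ± 11871 in left eyes (SD, n = 5 each). Each of these sums was higher in 2 of 5 right eyes.

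**Figure D2:**
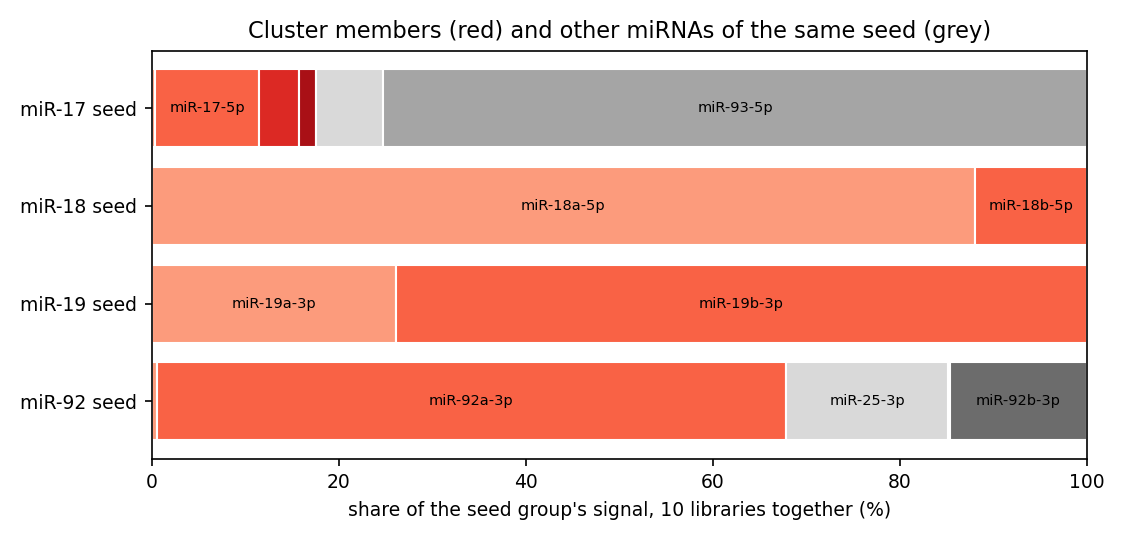
Share of each seed group's signal (percent, 10 libraries together) from cluster members (red) and from other miRNAs with the same seed (grey), with names where a share exceeds 8%. The miR-17 group is mostly miR-93-5p at 75.2%, the miR-92 group mostly miR-92a-3p at 67.2%, and the miR-18 and miR-19 groups hold members only.

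The first comparison asked whether any member differs by side. None of the 9 members tested passed in limma at an adjusted p of 0.05, against 0% of all 588 miRNAs, and 0 of the 9 had an unadjusted p under 0.05, against 13 of all. Means on the log2 scale were higher in right eyes for 4 members and lower for 5, beside 321 higher among all 588. The median log2 fold change was -0.04 for the members and 0.02 over all miRNAs tested. No member had one direction in all 5 pairs, a pattern seen in 2.89% of all miRNAs tested. Title numbers do not by themselves state that 2 eyes came from one animal. With number as a block, these p-values rest on how the right minus left differences spread between the numbers.

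The largest difference was in miR-106a-5p, at 13.7 ± 13.2 in right eyes and 20.4 ± 9.08 in left eyes (SD, n = 5 each). Its log2 fold change was -0.91 ± 0.41 (SE, 95% interval -1.88 to 0.06), with adjusted p = 0.967 in limma, and it was lower in 4 of 5 right eyes. Numbers 64 and 65 carried most of it, and the interval includes both no change and a drop of more than 2-fold. With a pseudocount of 10 in place of 1 it was -0.47, and it ran from -1.17 without number 66 to -0.58 without 65.

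For the other 8 members the 95% interval lay inside a 2-fold difference either way, as it did for 497 of all 588. The log2 fold change of miR-19b-3p was 0.18 ± 0.10 (SE, interval -0.05 to 0.42), higher in 4 of 5 right eyes, with adjusted p = 0.967 in limma. The abundant miR-92a-3p had -0.04 ± 0.13 (interval -0.36 to 0.28), and rank steps limit what can be seen for it. For miR-17-5p the value was -0.11 ± 0.11 (interval -0.38 to 0.16). Right eye 68 held the lowest miR-17-5p, and without that library it was -0.02.

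Values for the rest were similar in size. The log2 fold changes were -0.20 ± 0.22 for miR-18a-5p, -0.19 ± 0.17 for miR-19a-3p, 0.08 ± 0.10 for miR-20a-5p, 0.01 ± 0.21 for miR-20b-5p and 0.03 ± 0.12 for miR-363-3p (SE). With a number left out, miR-18a-5p ran from -0.36 (without 64) to -0.06 (without 65) and miR-19a-3p from -0.32 (without 65) to -0.07 (without 68, or without right eye 68 alone). These miss the threshold without showing that the eyes were alike: the interval of miR-18a-5p ran from -0.73 to 0.32 and that of miR-20b-5p from -0.50 to 0.51.

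**Figure D3:**
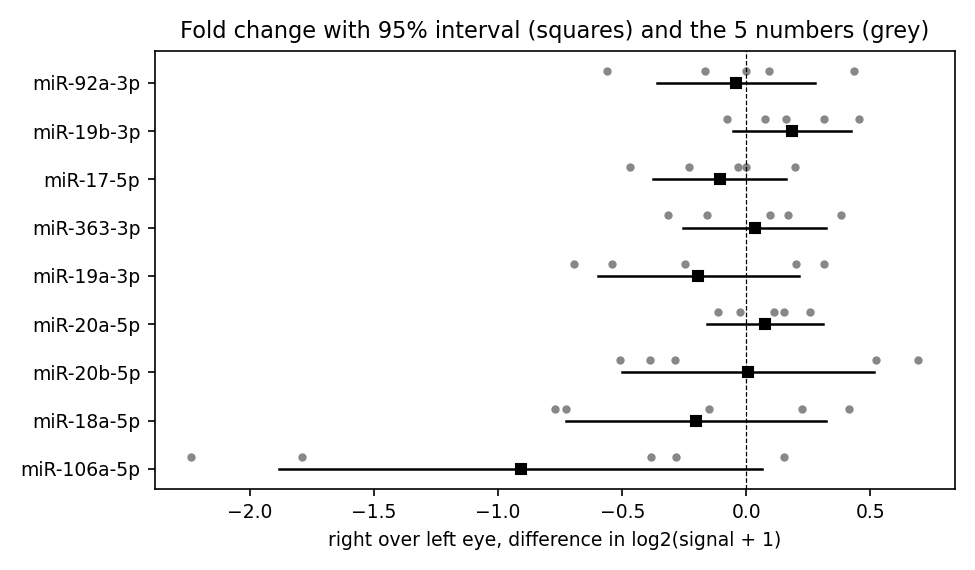
Right over left difference in log2(signal + 1) for the 9 members tested, with limma's estimate (square), its 95% interval (line) and the 5 numbers (grey points). All intervals include 0, and that of miR-106a-5p is the widest, from -1.88 to 0.06.

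In the miR-106b-25 cluster, the nearest relative, the same contrast gave 0.18 ± 0.08 for miR-25-3p, 0.00 ± 0.08 for miR-93-5p and -0.01 ± 0.09 for miR-106b-5p (log2, SE). None passed in limma, and miR-25-3p was higher in all 5 right eyes. Among the miR-92 seed relatives, miR-92b-3p had -0.35 ± 0.35 and miR-32-5p 0.07 ± 0.12. In 4 lists of other cell cycle miRNAs 0 members passed. Higher means in right eyes were found for 4 of 6 in the miR-15/16 family, which restrains cyclins, and 2 of 4 p53-linked miR-34 and miR-449 members. The same held for 3 of 9 members of the let-7 family, which restrains Myc and Ras genes, and neither of miR-221-3p and miR-222-3p, which target Cdkn1b. Over all 588 miRNAs tested, 321 had higher means in right eyes.

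The second comparison asked whether members differ between the title numbers by more than between the eyes of one number. None of the 9 passed limma's F test at an adjusted p of 0.05, against 7 of all 588 (1.19%), and 2 of the 9 had an unadjusted p under 0.05, against 137 of all. The gap between the highest and lowest number mean had a median of 0.45 on the log2 scale over the members and 0.67 over all miRNAs tested. Animal, litter and library preparation cannot be told apart in this comparison, and the 7 calls fell to 0 when any of numbers 61, 64 or 68 was left out, and to 1 without 65, and were 22 without 66.

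After miR-106a-5p, the widest gap was that of miR-19a-3p. Its number means were 159.8, 246, 298, 315 and 479.9 for 61, 64, 65, 66 and 68. Spans are given between number means of log2(signal + 1), not between these signal means. That of miR-19a-3p was 1.56, reached or exceeded by 34 of the 588, itself included. The adjusted p of limma's F test was 0.0941. Over the alternatives this adjusted p ran from 0.0596 to 0.306. Without number 61 the span was 0.92, and without number 68 it was 0.998.

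For miR-92a-3p the number means were 48322, 56816, 48941, 43443 and 32572, a log2 span of 0.79 with adjusted p = 0.23. Low values stood in number 68, where miR-19a-3p was high. The miR-17-92 transcript encodes both, but miR-92a-3p is also encoded on chromosome X, so its signal cannot be assigned to a single transcript. For miR-106a-5p the means were 26.5, 9.76, 12.2, 30.1 and 6.58, a span of 2.05 with adjusted p = 0.204, and with a pseudocount of 10 the span was 1.28. High values stood in both eyes of 61 and of 66, while the eyes of 64 and of 65 lay far apart. The remaining members had spans of 0.25 to 0.57, with adjusted p from 0.397 to 0.827, and the narrowest was miR-363-3p.

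**Figure D4:**
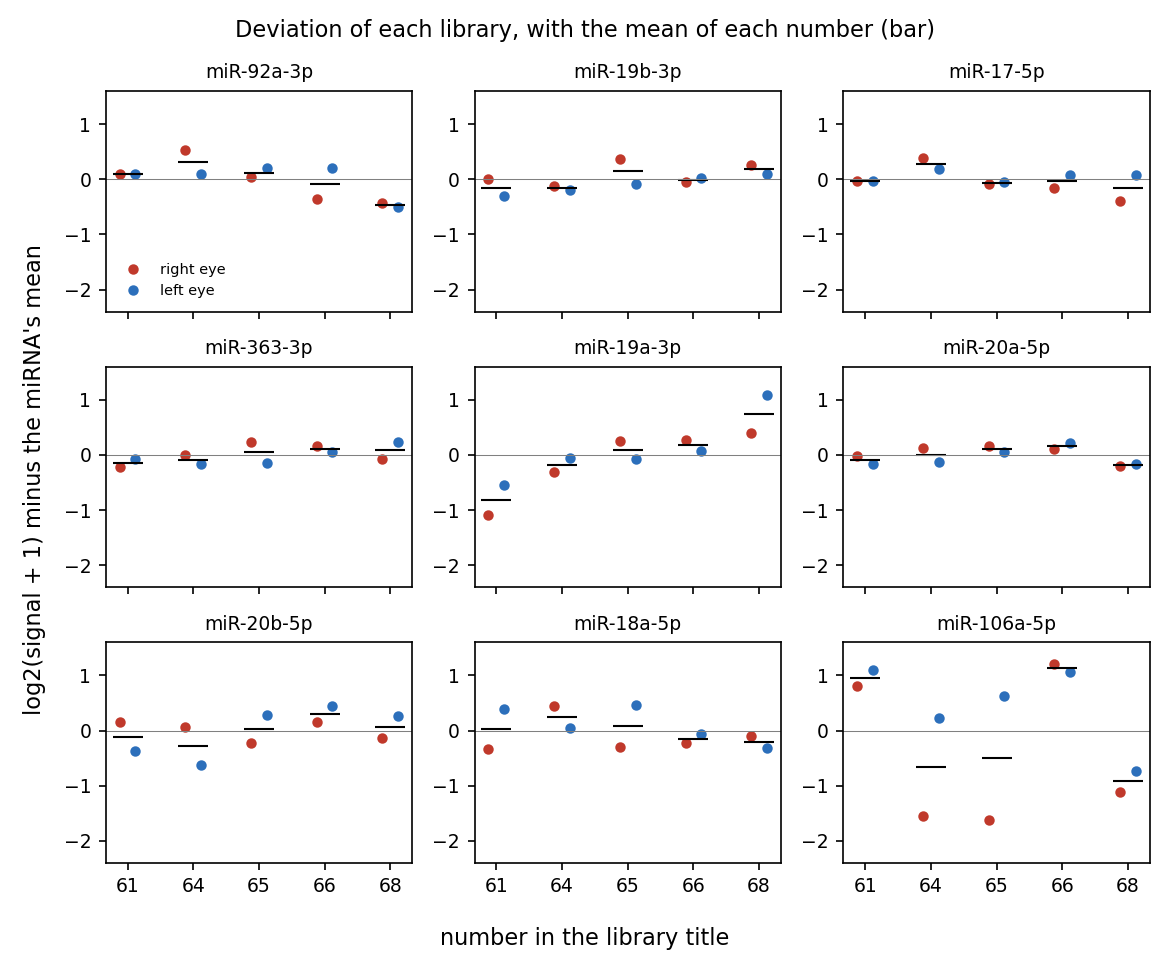
Deviation of log2(signal + 1) from the miRNA's own mean in each right eye (red) and left eye (blue), by title number, with the mean of the number as a bar, for the 9 members tested. For miR-19a-3p the number means span 1.56 and for miR-363-3p 0.25, and the eyes of numbers 64 and 65 lie far apart for miR-106a-5p.

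Members of one cluster were correlated in both directions across libraries. Over the 10 libraries, which include 2 eyes of each number, Pearson's r between members of one cluster had a median of 0.01 over 24 pairs, beside 0.00 over all pairs of miRNAs tested. It ran from -0.67 for miR-19a-3p with miR-92a-3p to 0.66 for miR-17-5p with miR-92a-3p. These pairs count miR-19b-3p and miR-92a-3p with both clusters. All 6 pairs among miR-17-5p, miR-18a-5p, miR-20a-5p and miR-92a-3p were positive, from 0.0019 to 0.66, a subset chosen after its values were seen. The highest r of any pair, 0.72, joined miR-19a-3p and miR-363-3p of different clusters. These are descriptions, since all values share the same libraries and normalisation.

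Base composition was set beside the contrast between miR-19a-3p and miR-92a-3p. The share of G and C is 34.8% in miR-19a-3p and 57.1% in miR-92a-3p, with a median of 50% over the 502 of the 588 miRNAs that have a RefSeq sequence. Across 493 miRNAs that are not members, the difference between numbers 68 and 61 correlated with this share at r = -0.39. In the same difference miR-19a-3p had 1.56 and miR-92a-3p -0.57, while miR-19b-3p at 39.1% had 0.34 and miR-20a-5p, with the same share, had -0.09. Of the other members, miR-363-3p at 40.9% had 0.23 and miR-18a-5p at 43.5% had -0.22. At 47.8% the values were -0.13 for miR-17-5p, 0.18 for miR-20b-5p and -1.87 for miR-106a-5p. Numbers 61 and 68 hold the lowest and highest mean of miR-19a-3p. The log2 ratio of miR-19a-3p to miR-92a-3p was lowest in right eye 61 (-8.53) and highest in left eye 68 (-5.73). The part of base composition in the differences between numbers was not tested.

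**Figure D5:**
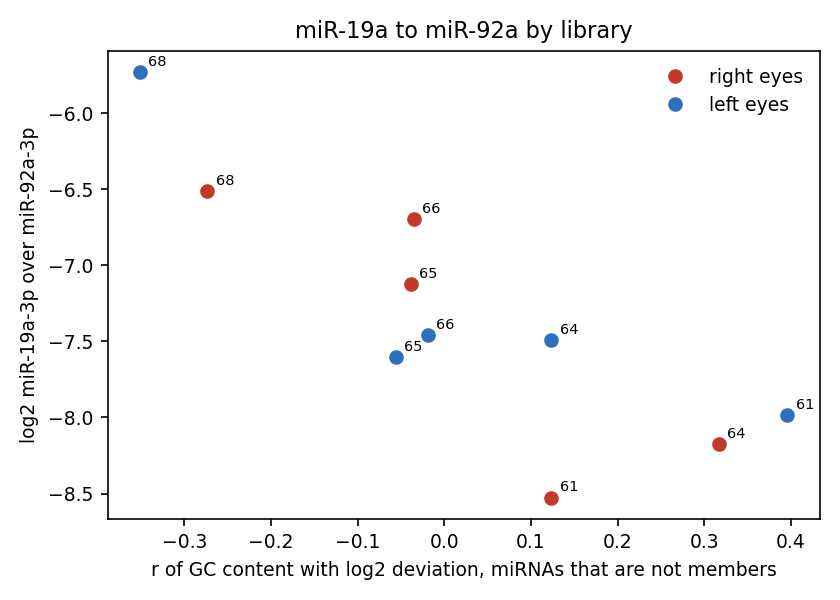
Log2 ratio of miR-19a-3p to miR-92a-3p in each library against the correlation, over 493 miRNAs that are not members, of G and C share with the library's deviation from the miRNA's mean, with right eyes in red, left eyes in blue and title numbers beside the points. Both eyes of number 68 lie at the upper left, and left eye 61 and right eye 64 at the lower right. Right eye 61 is lowest, at the same correlation (0.12) as left eye 64.

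The other arms of the hairpins were then examined. Of 12 such arms, 11 were in the table and 5 had a mean of at least 10, while miR-19b-2-5p was not analysed here. The arms that are unique to one locus of a shared miRNA differed widely. The chromosome 14 arm miR-92a-1-5p averaged 187 ± 45.8, and the X-linked arm miR-92a-2-5p 0.658 ± 1.08 and was listed at 0 in 5 libraries (SD, n = 10). As arms survive to different degrees in each hairpin, this does not divide the miR-92a-3p signal between the loci. The arm miR-19b-1-5p averaged 1.01 and was at 0 in 5 libraries.

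Which arm of a hairpin was the higher varied along the clusters. The 5p arm of miR-17 was 2.55 to 3.78 times its 3p arm in right eyes and 2.82 to 3.61 times in left eyes. For miR-18a the ratio ran from 0.83 to 2.72 in right eyes and from 0.988 to 1.68 in left eyes, with more of the 5p than of the 3p arm in 6 of 10 libraries. For miR-20a it was 14.4 to 36.9 in right eyes and 10.3 to 24.8 in left eyes. The order was opposite in miR-363, where the 5p arm was 0.0347 to 0.104 of the 3p arm in right eyes and 0.0363 to 0.0716 in left eyes.

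In a test of the log2 arm ratio by side, 0 of these 4 hairpins passed in limma, against 0% of the 158 hairpins tested, 3 of which had an unadjusted p under 0.05. The largest difference was in miR-20a, with a log2 ratio of 4.59 in right eyes and 4.03 in left eyes. This is a difference of 0.56 ± 0.27 (SE, interval -0.09 to 1.21), with adjusted p = 0.792 in limma. It came mostly from the scarce arm miR-20a-3p, at 9.28 ± 2.92 in right eyes and 13.8 ± 5.89 in left eyes (SD, n = 5 each). With a mean of 11.5 over all libraries, this arm met the minimum of 10 only through the left eyes. Its entry into the test thus depended on the side where it was higher. Number 65 had 7.8 in the right eye against 23.6 in the left, while number 68 went the other way, at 14.2 against 11. The arm miR-20b-3p was lower in all 5 right eyes, at 8.96 ± 1.58 against 11.02 ± 1.86 in left eyes. Its mean of 9.99 missed the minimum, and in the unfiltered fit its log2 fold change was -0.27 ± 0.33 (SE), with adjusted p = 0.986 in limma.

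Cell type marker miRNAs were summed to check the tissue, and fewer cells of a type cannot be told apart from less RNA per cell. The signal of RPE and melanocyte miRNAs summed to between 1959770 and 1990130 in right eyes and between 1969330 and 1990070 in left eyes. Most of this was miR-204-5p, listed at 1931810 in every library, so the normalisation fixed the sum and it shows only that this miRNA kept one rank. Retina and neuron miRNAs (6 of 6 listed) ran from 189910 to 1331680 in right eyes and from 263588 to 474323 in left eyes, with right eye 68 highest. Surface epithelium, cornea and lens miRNAs ran from 25305 to 205643 in right eyes and from 63993 to 244813 in left eyes, and 0 of 6 had a higher mean log2 signal in right eyes, with a median log2 fold change of -1.04. Striated muscle miRNAs had 0 of 4 higher in right eyes. Over all 588 miRNAs tested, 321 were higher in right eyes on this scale. For retina and neuron miRNAs the count was 4 of 6, with a median log2 fold change of 0.14. Of the other lists, the counts were 2 of 3 for erythroid, 2 of 2 for endothelium and 3 of 4 for fibroblast and smooth muscle miRNAs. No count is given for RPE and melanocyte miRNAs, as miR-204-5p had the same value in every library. No marker passed between sides in limma, and no marker of the 8 lists was at 0 in all libraries. In right eye 68 also stood the lowest miR-17-5p, miR-20a-5p and miR-18b-5p. In contrast, miR-19a-3p there, at 366, was exceeded only in left eye 68, and miR-19b-3p, at 1009, only in right eye 65. The part of retinal RNA in those values, and of surface epithelium in the side differences, was not tested. Leukocytes are cells in which miR-17-92 is known to act. Their miRNAs summed to between 19528 and 24007 in right eyes and between 18773 and 23598 in left eyes. On the mean log2 scale 6 of 6 were higher in right eyes, with a median log2 fold change of 0.08. The leukocyte sum was lower in the right eye of numbers 61 and 68.

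The mean centred pattern of the 9 members was most like that of miR-485-3p (r = 0.78), miR-127-3p (0.77), miR-185-3p (0.76), miR-296-5p (0.71) and miR-34c-3p (0.70), over 10 libraries. The members' own r with it ran from -0.37 for miR-19b-3p to 0.68 for miR-106a-5p, so the pattern stands for few of them.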

How the data were processed

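Small RNA was sequenced from 5 right and 5 left RPE/choroid/sclera samples, with TruSeq small RNA libraries, per the labels' protocols. The authors used Bowtie and Partek with GRCm38 (mm10), per the submitters' processing notes; versions are not given in the sources used here. The deposited values are a normalised signal that sums to nearly the same total in each library, by a method not given in the sources used here. Of the values above 0, 7.31% are whole within 0.001, so reads could not be recovered, the depth is unknown and no count model or detection limit is given. The table's stop positions lie 1 base beyond RefSeq's ends, and RefSeq coordinates are printed.

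Values were analysed as log2(signal + 1) for the 588 miRNAs with a mean of at least 10, with limma 3.58.1 (R 4.3.3), its mean-variance trend, two-sided tests and Benjamini-Hochberg adjustment over all of them. Sides were compared with the title number as a block, and numbers by the F test with side as covariate. The code was tested on simulated data. The alternatives tried were another pseudocount, other filters, no trend, median centring, no block, and libraries left out. Named are all members, their other arms, listed relatives and the 5 miRNAs of most similar pattern. Members and lists were chosen with earlier results of these data known.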

Additional observations from a re-analysis of the deposited data

Results flagged for a closer look

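A single eye stood apart from the 4 others of the same side in 2 of 26 checks of the members and cluster sums. The scale was log2, with 1 added to the signal of members. In values without ties, chance flags about 1 in 20 such groups. In left eye 68 miR-92a-3p had 31564, while the other left eyes had only 48322 or 51789, so that rate need not apply to it. In right eye 68 miR-18b-5p had 6.42e-08, while the other right eyes had 6.75 to 11.2.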

How the results depend on the processing

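No member passed for right against left eye, or between numbers, under any setting run, with or without the replicate block. Without the block 0 miRNAs and 0 hairpins passed between sides. The deviations of same-numbered eyes correlated at 0.12, 0.45, 0.01, -0.13 and 0.28, of which 3 exceed 0.1. Eyes of different numbers were not compared, so these values cannot decide whether same-numbered eyes came from one animal. The eyes are taken here to share a number only. Left out one at a time, the numbers gave 0 to 1 hairpins by side (1 without 61) and 0 to 22 miRNAs that passed between numbers, against 0 hairpins and 7 miRNAs with all libraries. The count of miRNAs between numbers was 0 without right eye 68 alone, 0 without the trend, 12 with median centring, 23 with a mean of at least 100 and 26 with number as the single term; the cause was not tested. With a number left out, log2 fold changes ran from -0.16 to 0.089 for miR-92a-3p (0.089 without 66), from -0.16 to 0.14 for miR-20b-5p (-0.12 without 61, -0.16 without 64) and from -0.053 to 0.12 for miR-363-3p (-0.053 without 65), and the other members kept their sign. The right minus left log2 difference of the miR-17-92 sum was -0.09, from -0.15 without 64 to 0.0018 without 68, and that of the miR-106a-363 sum was 0.01, -0.05 to 0.10 with a number left out, and -0.24 with the mean of log2 values, which weighs scarce members equally. The mean log2 ratio of the cluster sums was -1.23, -2.29 with the mean of log2 values and -0.022 with the shared miRNAs in both sums. Depth is unknown, so the counting error of scarce members could not be given.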
